A study of Mus musculus with 15 samples.

Results

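Calcium entry, storage, removal and decoding were described through 61 genes, out of 32657 features in the count files. The rule that chose them reads symbols and no measured value, although earlier results of these data were known when it was set. The members are pore, α2δ, β and γ subunits of voltage-gated calcium channels, ryanodine and IP3 receptors, SERCA and PMCA pumps, calmodulins, calmodulin-dependent kinases with their inhibitors and relatives, and calcineurin subunits, in 18 classes. The symbol rule also takes in AMPA receptor auxiliary subunits of the γ family (TARPs), the kinase-like vesicle protein gene *Camkv* and the calmodulin methyltransferase gene *Camkmt*.

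Voltage-gated channels let calcium into a neuron when its membrane depolarises, and the pore subunit sets which voltage opens them. Ryanodine and IP3 receptors release calcium from the endoplasmic reticulum, SERCA pumps return it there, and PMCA pumps expel it across the plasma membrane. Calmodulin binds the calcium that enters and switches on kinases such as CaMKII and the phosphatase calcineurin, a pair with opposing roles in synaptic plasticity of the hippocampus. The 5-HT4 receptor encoded by *Htr4* couples to Gs and raises cAMP, which activates protein kinase A.

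RNA-seq was made from mouse dentate gyrus (DG) of adults aged 8 to 12 weeks on a C57BL/6J background. All animals carried Drd3-Cre KI198 and Rosa26-fsTRAP, so EGFP-tagged ribosomal protein L10a marked the ribosomes of Cre-expressing cells, which in the DG are granule cells and hilar mossy cells. Wild type (WT) animals had intact *Htr4*, and conditional knockouts (cKO) carried Htr4-Floxed in addition, so that a coding exon of *Htr4* is lost where Cre acts. Translating ribosome affinity purification (TRAP) gave an immunoprecipitate (IP) of mRNAs on tagged ribosomes, set beside tissue input.

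The 6 groups were WT ventral DG (vDG) IP (n = 3), WT vDG input (n = 3), cKO vDG IP (n = 2), cKO vDG input (n = 2), WT dorsal DG (dDG) input (n = 3) and cKO dDG input (n = 2). No IP of the dDG was analysed here. The records give 3 mice pooled for each IP and 2 for each input, whereas the methods speak of a male and a female pooled per replicate, so the number behind an IP is uncertain and both sexes were mixed. The source label of the inputs speaks of cortex, whereas titles and the region label give DG, and the ventral and dorsal genes below followed the titles.

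The 15 libraries held 19039295 to 30451430 reads on genes. Values are read counts scaled to 1000000 per library (CPM). *Htr4* was counted over all of its exons, so the loss of a single exon need not lower it. It lay at 13.6 to 18.6 CPM in WT vDG libraries and at 26.7 to 29.8 in those labelled cKO, and at 24.9 to 33.9 in WT dDG inputs against 47.1 to 51.3 in dDG inputs labelled cKO. The gene-level count thus separated the genotype labels without overlap within each region, but it could not show the loss of an exon. Exon-level counts were not used here, and genotype directions below are given for libraries labelled cKO. The ventral DG gene *Trhr* lay at 14.7 to 31.5 CPM in vDG inputs and at 0.118 to 0.718 in dDG inputs, and the dorsal gene *Lct* at 30.0 to 48.4 and 128 to 181. Summed over marker lists, 6 astrocyte genes lay at 309.8 to 523 CPM in vDG inputs and 48.4 to 105 in the IPs, and 8 interneuron genes at 380.0 to 513 and 115 to 194, with no gene of either list at 0 throughout a group. IP replicate 1 labelled cKO stood apart from all other libraries on the third principal component.

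Transcript levels were compared between genes as CPM per kilobase of exons, in the WT vDG IP (n = 3). The calmodulin gene *Calm2* was at 5263 ± 227 (SD), the highest of the members described, and *Calm3* was at 440.5 ± 42.5. Both genes encode the same protein. Also high were the calcineurin regulatory subunit gene *Ppp3r1* (632 ± 42.6), *Camk2a* (549.8 ± 66.2), the CaMKII inhibitor gene *Camk2n1* (372 ± 7.72) and the calcineurin catalytic gene *Ppp3ca* (335 ± 28.3). These decoding genes stood above every channel and pump gene. Reads that also match another copy were not counted, so levels of *Calm2* and *Calm3* are uncertain to that extent.

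Among pumps, *Atp2a2*, the SERCA pump of the endoplasmic reticulum, had 139.9 ± 12.99 CPM per kilobase. Of the PMCA genes, *Atp2b3* (73.2 ± 13.4) and *Atp2b1* (60.4 ± 9.83) overlapped between libraries, and *Atp2b2* (44.4 ± 5.73) and *Atp2b4* (18.7 ± 2.11) followed without overlap. Among pores the R-type gene *Cacna1e* led with 33.4 ± 4.53, above the N-type *Cacna1b* (14.1 ± 0.969) and the L-type *Cacna1c* (13.6 ± 1.86), which overlapped. *Cacna1e* held 38.0% to 41.2% of the per-kilobase sum of the 10 pore genes in the WT vDG IPs. Of the store channels, *Ryr2* (32.7 ± 4.01) stood above *Itpr1* (13.3 ± 0.783) and *Ryr3* (4.37 ± 1.37).

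Some members were barely detected. The skeletal muscle gene *Cacng1* never exceeded 3 reads in a library, and *Cacna1s*, *Atp2a1*, *Atp2a3* and *Ppp3r2* never exceeded 14. None of these 5 genes passed the count filter in a comparison between 2 groups, and *Cacna1f*, *Cacng4* and *Itpr3* passed it in some. Between 54 and 55 of the 61 members were tested in each of these comparisons.

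**Figure D1:**
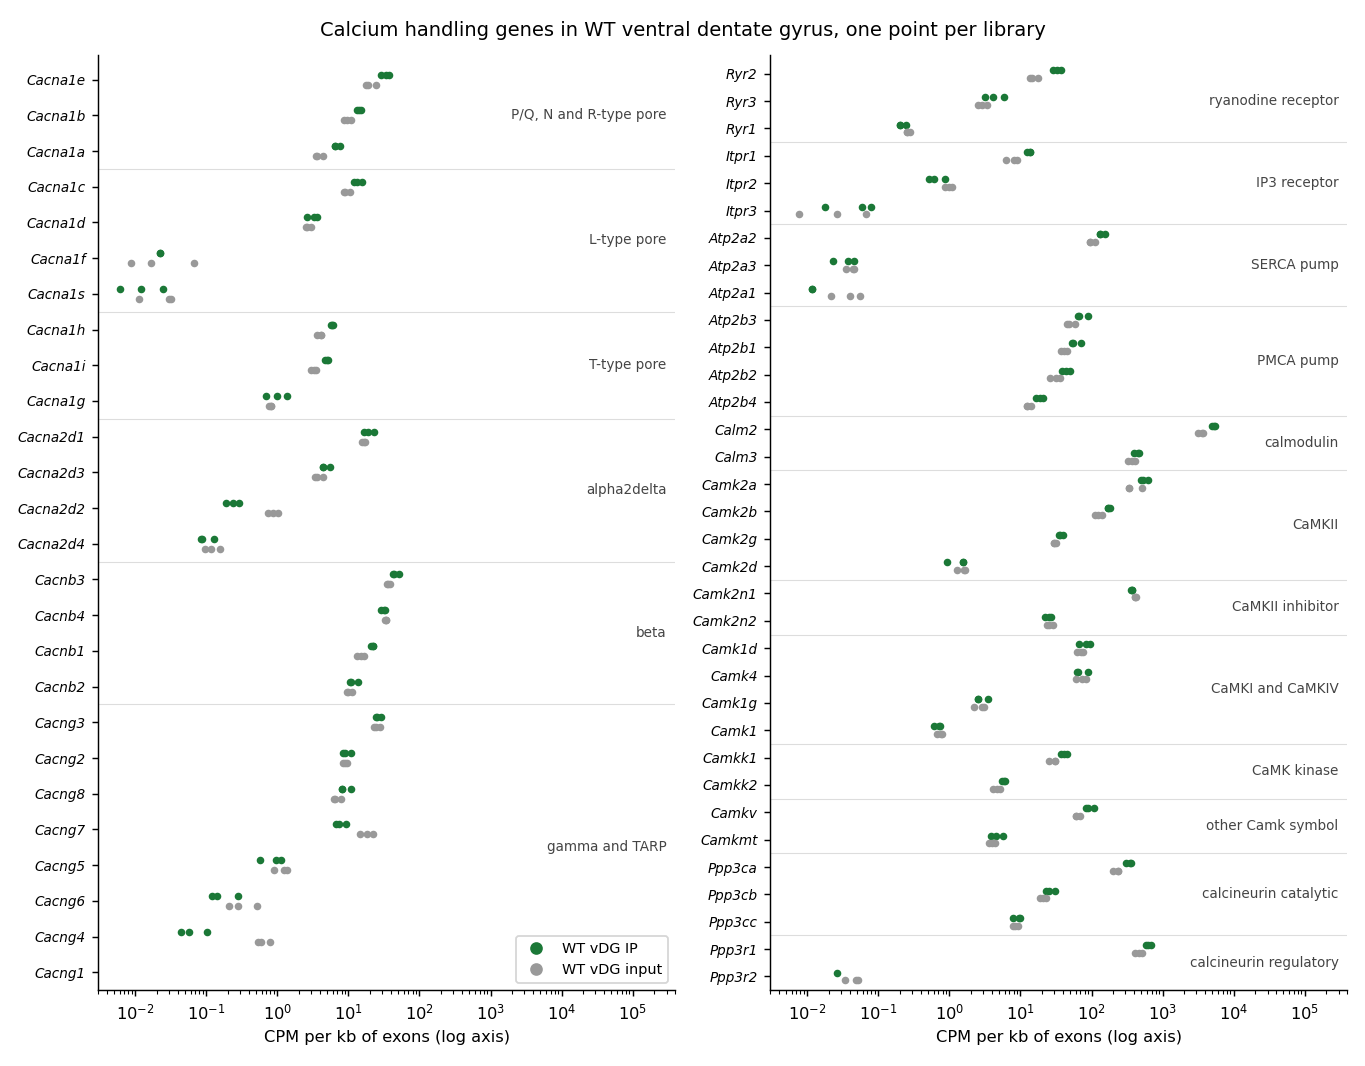
CPM per kilobase of exons on a log axis for members in WT vDG, grouped by class, with each of the 3 IP libraries and 3 input libraries as a point; values of 0 are not drawn, so *Cacng1* has no point. *Calm2*, at a mean of 5263 in the IP, is the highest, and the members that were barely detected lie at the low end.

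TRAP asked which of these transcripts were carried on ribosomes of KI198 cells more than in the surrounding tissue. In WT, 20 of 55 tested members rose in the IP, where 7.73% of all 15011 tested genes rose, and 4 fell, where 16.1% of all genes fell (edgeR quasi-likelihood test, false discovery rate (FDR) under 0.05). All 20 also passed the fold limit that the study set for enrichment (7.72% of all genes did), and 3 lay below a fold of 0.5 (11.4% of all genes did). The median log2 difference was 0.26 over members and 0.00 over all tested genes. In libraries labelled cKO, 25 of 54 members rose, where 11.8% of all genes did, and 3 fell, where 15.7% did. The fold limits were passed there by 23 and 3 members (11.4% and 10.7% of all genes), and the medians were 0.27 over members and -0.03 over all genes.

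*Ryr2*, a ryanodine receptor of heart muscle and brain, had the largest IP excess of all tested members in both genotypes by edgeR as fitted. The gene lies on the minus strand of chromosome 13 (11553102 to 12106945, mm10) and its exons cover 28790 bp. *Ryr2* measured 824, 942 and 1055 CPM in the WT IPs and 395, 513 and 424 in the WT inputs. In libraries labelled cKO it measured 579.7 and 714 in the IPs and 280.2 and 306 in the inputs. Neither pair of groups overlapped, and the log2 difference was above 1 in both genotypes (1.02, SE 0.13, FDR = 5.83e-05 in WT and 1.11, SE 0.11, FDR = 2.47e-05 in those labelled cKO, edgeR). With the trend with exonic length removed they were 0.76 and 0.74, where *Atp2b3* (0.78) had the largest excess in libraries labelled cKO, as *Cacna1i* had without IP replicate 2 labelled cKO. *Itpr1*, the IP3 receptor of neurons, was also above input, with 227, 251 and 252 CPM in the WT IPs against 148, 166 and 114 in the inputs (log2 difference 0.71, SE 0.14, FDR = 0.00213, edgeR). *Itpr2*, better known from glia, was lower in the WT IP (log2 difference -0.63, SE 0.19, FDR = 0.0309, edgeR), a call lost on leaving out WT IP replicate 1 or 2 or WT input replicate 1 or 2.

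Every pore gene of the P/Q, N and R classes rose in the IP of both genotypes. The P/Q-type gene *Cacna1a*, which serves transmitter release, had 74.6, 72.8 and 87.9 CPM in the WT IPs and 40.4, 49.6 and 40.6 in the inputs (log2 difference 0.79, SE 0.13, FDR = 0.000595, edgeR). *Cacna1e* had 721, 855 and 949 CPM against 470.3, 611 and 442 (log2 difference 0.67, SE 0.14, FDR = 0.0033, edgeR). The IP and input libraries did not overlap for either gene. The N-type *Cacna1b* (0.47), the L-type *Cacna1c* (0.49) and the low-voltage T-type *Cacna1h* (0.50) and *Cacna1i* (0.53) rose in WT by smaller log2 differences. The WT calls of *Cacna1b* and *Cacna1c* were lost with library size alone and without WT input replicate 3. *Cacna1c* also lost its WT call without WT input replicate 1 and with the length trend removed. The L-type *Cacna1d* (0.18) and the T-type *Cacna1g* (0.28) were not called. In libraries labelled cKO the same 6 pore genes rose, and all 8 tested pore genes had a log2 difference above 0 in each genotype.

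Auxiliary subunits were divided. The β subunit gene *Cacnb1* rose in both genotypes (log2 differences 0.50 and 0.64), whereas *Cacnb3*, the most abundant β gene, was not called by edgeR as fitted (0.26 and 0.26). With the replicate block *Cacnb3* was called in libraries labelled cKO. The α2δ gene *Cacna2d2* measured 1.48, 1.90 and 2.26 CPM in the WT IPs and 5.77, 8.18 and 6.86 in the inputs, without overlap (log2 difference -1.94, SE 0.24, FDR = 4.99e-05, edgeR). The most abundant α2δ gene, *Cacna2d1*, lay the other way (0.18 in WT, not called, and 0.32, SE 0.10, FDR = 0.0287, edgeR in those labelled cKO), and so did the TARP gene *Cacng8* (0.33, not called, and 0.55, SE 0.17, FDR = 0.0299, edgeR). Both calls were lost with library size alone. *Cacna2d1* also lost its call with 10 counts in every library, all groups in a single fit or the length trend removed. The TARP gene *Cacng7* fell in the IP of both genotypes (-1.30 and -1.43). *Cacng4* was called lower in both as well, but it passed the count filter only through the inputs, so its size is uncertain. It had 9, 4 and 5 reads in the WT IPs against 57, 82 and 49 in the inputs and 10 and 0 against 42 and 58 in libraries labelled cKO, which in WT was 0.360, 0.159 and 0.201 CPM against 2.12, 2.82 and 1.91. Astrocyte, interneuron and oligodendrocyte markers were called lower in the same WT comparison for 6 of 6, 7 of 8 and 5 of 6 genes. Their part in the low values of *Cacna2d2*, *Cacng4*, *Cacng7* and *Itpr2* was not tested.

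All 5 tested pump genes rose in the IP of both genotypes. Their log2 differences lay between 0.42 and 0.50 in WT and between 0.58 and 0.78 in those labelled cKO. *Atp2b3* had 313, 319 and 427 CPM in the WT IPs and 230.3, 287 and 218 in the inputs, without overlap (log2 difference 0.46, SE 0.14, FDR = 0.0303, edgeR). In WT all 5 calls were lost without WT input replicate 3, and 4 of them with scaling to library size alone. *Atp2b2*, *Atp2b3* and *Atp2a2* were also lost without WT input replicate 1. With 10 counts in every library *Atp2b2* and *Atp2b3* were lost. *Atp2b2* was lost without WT IP replicate 2 and *Atp2b3* without WT IP replicate 3. In libraries labelled cKO no pump call was lost with another scaling, filter or fit of all libraries. Exons of *Atp2a2* overlap 83 bp of a predicted gene on the opposite strand.

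Among decoding genes, *Calm2* had 7879, 7337 and 7945 CPM in the WT IPs and 5319, 4698 and 5431 in the inputs, without overlap (log2 difference 0.52, SE 0.11, FDR = 0.00363, edgeR). It rose by 0.52 in those labelled cKO. *Calm3* (0.20 and 0.16) was not called. *Ppp3ca* (0.52 and 0.60), *Ppp3r1* (0.39 and 0.30), *Camk2b* (0.44 and 0.51), the CaMK kinase gene *Camkk1* (0.46 and 0.38) and *Camkv* (0.52 and 0.47) rose in both. *Camkk1* and *Ppp3r1* lost the call in each genotype on leaving out single libraries, and *Camk2b* lost it in WT without input replicate 1 or 3. In libraries labelled cKO *Camk2g*, another CaMKII gene (0.38, SE 0.10, FDR = 0.0118, edgeR), and the store channel gene *Ryr3* (0.43, SE 0.12, FDR = 0.0177, edgeR) were called higher too. In WT they had 0.22 and 0.51 and were not called by edgeR as fitted. *Ryr3* was called in WT with DESeq2, no count filter, the replicate block or all groups in a single fit, and *Camk2g* with that single fit. In libraries labelled cKO both lost the call with library size alone. There *Ryr3* also lost it with all groups in a single fit or the length trend removed. *Camk2a*, the leading CaMKII gene of forebrain neurons, had 3727, 3923 and 4663 CPM in the WT IPs and 2539, 3848 and 2537 in the inputs. These groups overlapped and it was not called in WT (log2 difference 0.40, SE 0.16, FDR = 0.077, edgeR), whereas it was called in libraries labelled cKO (0.64, SE 0.09, FDR = 0.000376, edgeR), and the difference between genotypes was not called (0.27, SE 0.22, FDR = 1, edgeR). Both CaMKII inhibitor genes had log2 differences below 0 in each genotype, between -0.26 and -0.10, with no call by edgeR as fitted. DESeq2 called *Camk2n1* lower in libraries labelled cKO, and so did edgeR with no count filter, with 10 counts in every library, with the replicate block, with the block and the length trend removed, and without vDG input replicate 1 labelled cKO. Scaling to library size alone called it in both genotypes and *Camk2n2* in those labelled cKO.

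The IP comparisons of the genotypes share no library. Of 54 members tested in both, 23 were called in the same direction in both, which is 95.8% of the 24 called in WT and 82.1% of the 28 called in libraries labelled cKO, and none was called in opposite directions. The sign was the same for 49 (90.7%), beside 82.5% of all 14713 genes tested in both. Without IP replicate 1 labelled cKO, the library that stood apart, 26 of the 28 calls remained. *Cacna2d1* and *Cacng8* were lost and *Camk1d* and *Ppp3cb* added. On leaving out each library in turn, 13 of the 24 WT calls held every time (*Itpr1*, *Cacna1a*, *Cacna1e*, *Cacna1h*, *Cacna1i*, *Cacna2d2*, *Cacnb1*, *Ppp3ca*, *Calm2*, *Cacng4*, *Cacng7*, *Camkv* and *Ryr2*, with *Cacng4* on few reads), as did 20 of the 28 in libraries labelled cKO. Without WT input replicate 3, 12 rather than 20 members rose in WT. With scaling to library size alone, which moved the median of all genes to -0.13, 11 rose. The most abundant members of the 18 classes rose in 12 cases in WT and 14 in those labelled cKO and fell in none. The other 6 in WT lay between -0.23 and 0.40 (FDR from 0.077 to 0.949, edgeR).

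**Figure D2:**
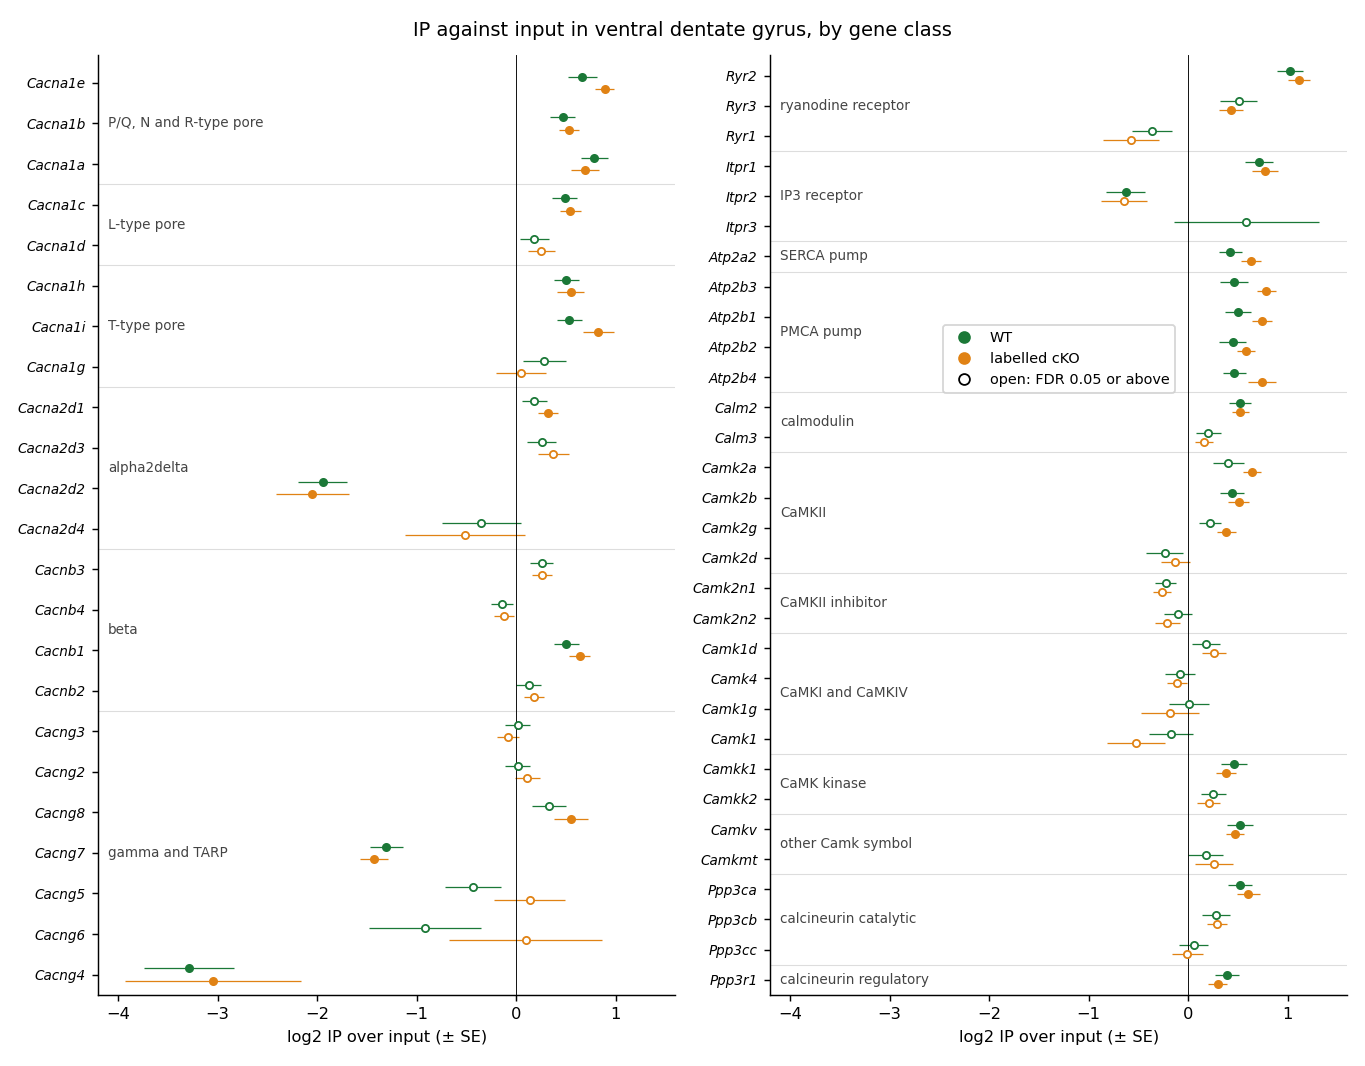
Log2 difference between IP and input in vDG for tested members, grouped by class, in WT (green) and in libraries labelled cKO (orange); bars are the standard error of edgeR's fit and open points have an FDR of 0.05 or above. *Ryr2* lies farthest above 0 (1.02 and 1.11), pores and pumps lie above 0, and *Cacng4*, *Cacna2d2* and *Cacng7* lie far below.

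Inputs of vDG and dDG were compared to ask which members differ along the long axis of the DG, within each genotype. In WT, 10 of 55 members were higher in vDG, where 9.26% of all genes were, and 8 were lower, where 6.09% were. In inputs labelled cKO, 6 of 54 were higher (8.56% of all genes were) and 14 lower (8.47% of all genes were). The median log2 difference was 0.05 in WT and -0.11 in those labelled cKO, beside -0.01 and 0.01 over all tested genes. Longer genes were lower in vDG labelled cKO (Spearman's rho of -0.21 over 13870 genes, which are not independent). Members called lower there had a median of 12015 exonic bp, beside 5165 for members not called. With the length trend removed *Cacna1a*, *Ryr1* and *Ryr2* lost the call in inputs labelled cKO. The genotypes share no library here either. Of 54 members tested in both, 4 were higher in both (*Atp2b4*, *Camk2n2*, *Cacna1i* and *Ryr3*) and 7 were lower in both (*Cacng5*, *Cacna1h*, *Itpr1*, *Ryr1*, *Camk2b*, *Ppp3ca* and *Atp2b2*). These 11 are 61.1% of the 18 called in WT and 55.0% of the 20 called in inputs labelled cKO, and none was called in opposite directions. On leaving out each library in turn, 13 of the WT calls held every time, as did 14 of those in inputs labelled cKO, and 8 of the 11 held every time in both (*Camk2b*, *Camk2n2*, *Itpr1*, *Atp2b4*, *Cacna1h*, *Cacna1i*, *Ppp3ca* and *Cacng5*).

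*Atp2b4*, the PMCA4 pump, showed the largest ventral excess in WT. It lies on the minus strand of chromosome 1 (133699457 to 133801041, mm10). It measured 153, 171 and 152 CPM in WT vDG and 55.1, 45.7 and 38.4 in WT dDG, and 124 and 91.9 in vDG labelled cKO against 31.0 and 32.4 in dDG labelled cKO. All vDG inputs lay above all dDG inputs (log2 differences 1.79, SE 0.13, FDR = 9.64e-08 in WT and 1.75, SE 0.14, FDR = 2.14e-08 in those labelled cKO, edgeR). *Atp2b2*, the PMCA2 pump, was lower in vDG (-0.42 and -0.60), and its WT call was lost on leaving out WT vDG input replicate 1 or 3 or WT dDG input replicate 1. The shares of both in the PMCA sum did not overlap between regions. *Atp2b4* made up 7.97% to 11.01% of the per-kilobase PMCA sum in vDG inputs and 2.05% to 3.27% in dDG inputs, and *Atp2b2* 20.7% to 26.9% and 31.4% to 34.9%.

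The T-type pores differed in opposite directions. *Cacna1i* (chromosome 15, 80287238 to 80398279) had 29.6, 32.2 and 34.5 CPM in WT vDG and 19.6, 11.6 and 12.4 in WT dDG (log2 difference 1.16, SE 0.18, FDR = 0.000188, edgeR). *Cacna1h* (chromosome 17, 25374285 to 25433783) had 39.5, 40.6 and 35.4 CPM in WT vDG and 111, 68.1 and 76.9 in WT dDG (log2 difference -1.14, SE 0.16, FDR = 7.51e-05, edgeR). Neither gene overlapped between regions, and the differences in inputs labelled cKO were 0.79 and -0.93. *Cacna1i* held 32.9% to 44.3% of the per-kilobase T-type sum in vDG inputs and 12.7% to 17.3% in dDG inputs, whereas *Cacna1h* held 46.0% to 56.0% and 75.5% to 79.8%. Exons of *Cacna1h* overlap 158 bp of *Tpsg1* on the opposite strand.

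Store release channels were split as well. *Ryr3* (chromosome 2, 112631355 to 113217096) had 48.0, 65.0 and 54.0 CPM in WT vDG and 26.3, 30.5 and 30.8 in WT dDG, without overlap (log2 difference 0.94, SE 0.14, FDR = 0.000107, edgeR). In inputs labelled cKO its difference was smaller (0.38, SE 0.13, FDR = 0.0427, edgeR), a call lost with DESeq2 or without any of the 4 libraries. *Itpr1* (chromosome 6, 108213096 to 108551109) had 148, 166 and 114 CPM in WT vDG and 299, 248 and 259 in WT dDG, without overlap (log2 difference -0.90, SE 0.13, FDR = 0.000163, edgeR). In inputs labelled cKO *Itpr1* had 109 and 118 CPM in vDG and 211 and 251 in dDG (log2 difference -1.03, SE 0.12, FDR = 2.91e-06, edgeR). Exons of *Ryr3* overlap 916 bp of *Aven*, and those of *Itpr1* 289 bp of predicted genes, on the opposite strand. *Ryr1*, the skeletal muscle form, was lower in vDG (-0.65 and -0.73), a call lost in each genotype on leaving out single libraries (WT vDG input replicate 2 or 3, WT dDG input replicate 1, and vDG or dDG input replicate 1 labelled cKO), and with the length trend removed in those labelled cKO. *Ryr2* had 395, 513 and 424 CPM in WT vDG and 431, 419 and 428 in WT dDG, which overlapped (log2 difference 0.07, FDR = 0.741, edgeR). In inputs labelled cKO it was lower in vDG, at 280.2 and 306 against 411 and 449.6 CPM (log2 difference -0.56, SE 0.11, FDR = 0.00114, edgeR), and with the trend with exonic length removed it was -0.26 (FDR = 0.0952, edgeR), a call lost, or -0.26 with the replicate block as well (FDR = 0.0238, edgeR), a call kept.

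In the decoding group, *Camk2n2*, an inhibitor of CaMKII, had 30.4, 32.3 and 36.5 CPM in WT vDG and 10.0, 14.9 and 11.7 in WT dDG, and 40.1 and 38.7 against 11.8 and 8.90 in inputs labelled cKO. The regions did not overlap (log2 differences 1.45, SE 0.16, FDR = 5.54e-06 in WT and 1.92, SE 0.15, FDR = 2.67e-08 in those labelled cKO, edgeR). The more abundant inhibitor gene *Camk2n1* was called in neither genotype. It had 1843, 1901 and 1820 CPM in WT vDG and 1775, 1946 and 1894 in WT dDG, and 2099 and 2287 against 2114 and 2073 in inputs labelled cKO. Of the CaMKII genes, *Camk2b* was lower in vDG (-0.52 and -0.48). *Camk2a* was at -0.25 in WT, where it was not called, and -0.47 in those labelled cKO. *Ppp3ca* was lower as well (-0.51 and -0.92), at 2369, 2354 and 1983 CPM in WT vDG against 3166, 3294 and 3160.0 in WT dDG. The kinase genes *Camk1g* (1.15) and *Camk4* (0.85) and the α2δ gene *Cacna2d3* (0.58) were higher in vDG in WT, and their differences in inputs labelled cKO (0.53, 0.21 and -0.05) were not called. *Calm2* and *Calm3* were not called in either genotype.

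The TARP gene *Cacng5* was lower in vDG in both genotypes (-1.27 and -1.51), at 3.43, 5.23 and 4.72 CPM in WT vDG and 12.1, 11.4 and 9.17 in WT dDG. The other WT calls were *Camkk1* (-0.46), *Atp2b3* (0.38), *Cacnb3* (0.35) and *Atp2a2* (0.33), with FDRs from 0.0086 to 0.0482 (edgeR). *Cacnb3* and *Atp2a2* were each lost without any of 5 of the 6 libraries, and *Atp2b3* without WT vDG input replicate 2, without WT dDG input replicate 2 or 3, and with all groups in a single fit. By edgeR as fitted, calls in inputs labelled cKO and not in WT were *Cacng3* (0.58) and *Camkv* (0.46), which were higher, and *Atp2b1* (-0.67), *Cacna1e* (-0.65), *Ryr2*, *Cacna1a* (-0.52), *Cacna1d* (-0.51), *Camk2a* and *Cacnb4* (-0.43), which were lower. Of these, *Camkv*, *Camk2a*, *Cacna1a* and *Cacnb4* were lost without dDG input replicate 2 labelled cKO, and *Camkv* was called in WT as well with DESeq2, with library size alone and with the length trend removed. *Camk2a* and *Cacna1e* were called in WT without WT vDG input replicate 2, and *Cacng3* with the replicate block and the length trend removed. Whether members differed between genotypes in this respect was tested only by the interaction below. The most abundant class members that were not called lay between -0.26 and 0.31 in WT (11 genes) and between -0.19 and 0.24 in those labelled cKO (10 genes).

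Cell type markers moved with the region too. The 8 granule cell genes summed to 1192 to 1394 CPM in vDG inputs and 1819 to 1901 in dDG inputs, and the 8 CA pyramidal genes to 115 to 124 and 75.1 to 92.2. The 6 mossy cell genes summed to 96.1 to 122 and 27.9 to 34.1, most of it from *Calb2* in vDG, with 1 of 5 tested genes higher and 1 lower in WT. The 8 interneuron genes summed to 380.0 to 513 CPM in vDG inputs and 301 to 371 in dDG inputs, with 3 of 8 higher in vDG in each genotype, and the 6 oligodendrocyte genes to 354 to 445 and 480.3 to 509, with 3 lower in WT and 2 in those labelled cKO. The 5 choroid plexus genes ran from 31.7 to 148 CPM in WT dDG inputs and from 23.0 to 28.2 in WT vDG inputs, but from 18.03 to 23.0 in dDG and 22.7 to 35.4 in vDG inputs labelled cKO. The 6 astrocyte genes summed to 422 to 523 CPM in vDG and 453 to 484 in dDG in WT, and to 309.8 to 342 and 326 to 435 in those labelled cKO, with 1 of 6 lower in vDG in the latter. Their part in the members' differences was not tested, and in tissue inputs fewer cells of a type and less RNA per cell cannot be told apart.

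**Figure D3:**
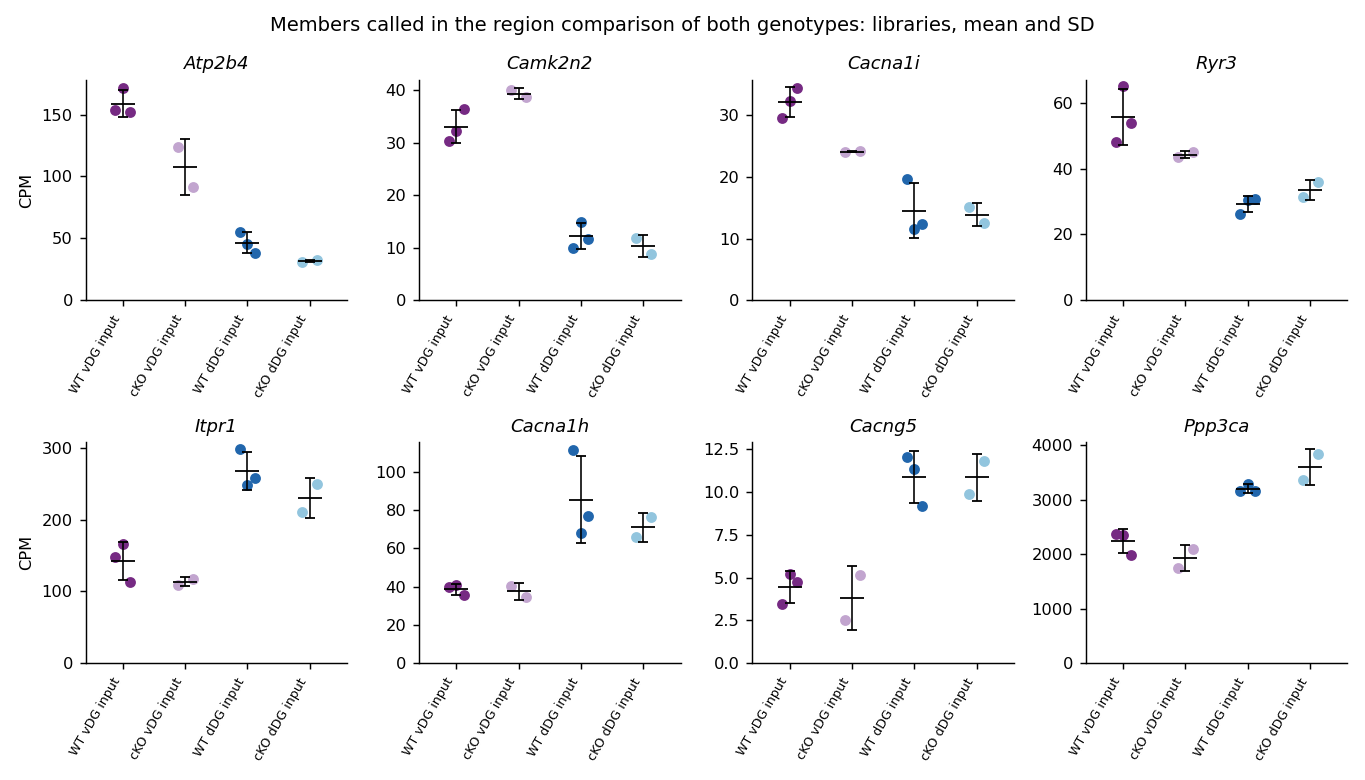
CPM per input library for 8 members called in the same direction in the region comparison of both genotypes, with the mean and SD over libraries and each axis starting at 0. For *Atp2b4*, *Camk2n2*, *Cacna1i* and *Ryr3* every vDG library lies above every dDG library, and for *Itpr1*, *Cacna1h*, *Cacng5* and *Ppp3ca* the order is the opposite.

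**Figure D4:**
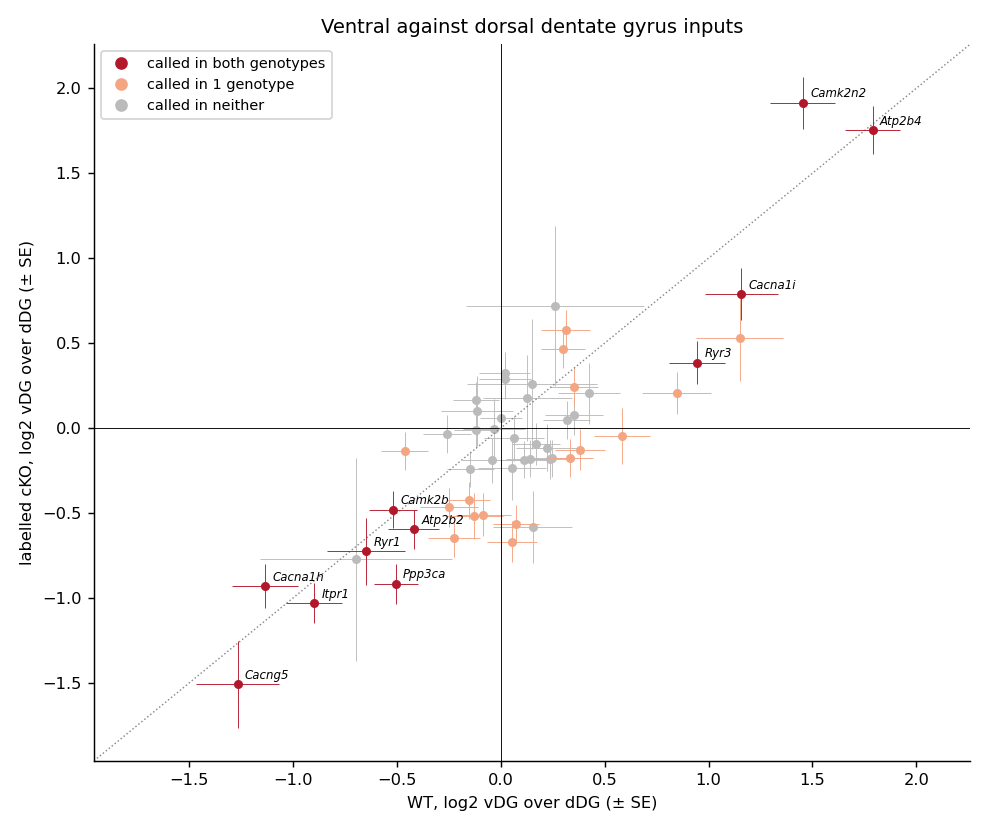
Log2 difference between vDG and dDG inputs in WT (x axis) and in inputs labelled cKO (y axis) for members tested in both that are reported here, with standard errors as bars and the line of equal values. The 11 members called in both lie away from 0 on both axes, led by *Atp2b4* (1.79 and 1.75), *Camk2n2* (1.45 and 1.92) and *Cacng5* (-1.27 and -1.51).

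The genotypes were compared in vDG inputs, vDG IPs and dDG inputs to ask whether calcium genes changed with the loss of *Htr4* function. In vDG inputs, 8 of 54 members were lower in libraries labelled cKO, where 2.33% of 15786 tested genes were lower, and none was higher (0.108% of all genes were). At an unadjusted p under 0.05, 17 members were lower and 0 higher, beside 10.6% and 4.23% of all genes. DESeq2 called the same 8 lower and 0 higher, beside 4.84% and 0.279% of the genes it gave an adjusted p. The median log2 difference was -0.13 over members and 0.01 over all tested genes. The 8 were 4 pumps (*Atp2b3*, *Atp2b1*, *Atp2a2* and *Atp2b4*), the store channels *Ryr2* and *Itpr2*, and the α2δ genes *Cacna2d3* and *Cacna2d1*.

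Of the pumps, 4 of 5 tested were lower. *Atp2b3*, the PMCA3 pump on chromosome X, had 230.3, 287 and 218 CPM in WT and 151 and 159.6 in those labelled cKO (log2 difference -0.67, SE 0.14, FDR = 0.00853, edgeR). *Atp2b1*, the PMCA1 pump, had 617, 677 and 569 against 392 and 433 (-0.60, SE 0.13, FDR = 0.011, edgeR). *Atp2a2* had 573, 672 and 575 against 393 and 426 (-0.58, SE 0.13, FDR = 0.0142, edgeR). None of these pumps overlapped between genotypes. *Atp2b4* had 153, 171 and 152 against 124 and 91.9, also without overlap (-0.57, SE 0.14, FDR = 0.0263, edgeR), and *Atp2b2*, with 331, 455 and 394 against 311 and 317, was not called (-0.34, FDR = 0.216, edgeR).

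*Cacna2d3*, an α2δ subunit gene, had the largest difference of the 8, with 30.0, 31.1 and 38.4 CPM in WT and 21.4 and 16.8 in those labelled cKO (log2 difference -0.81, SE 0.16, FDR = 0.00817, edgeR). *Cacna2d1*, whose α2δ product binds gabapentin, had 190.2, 213 and 208 against 151 and 144 (-0.48, SE 0.12, FDR = 0.0384, edgeR). The groups did not overlap for any of the 8, as was the case below WT for 17.1% of all tested genes. *Ryr2* had 395, 513 and 424 against 280.2 and 306 (-0.61, SE 0.13, FDR = 0.0142, edgeR), and *Itpr2* 14.6, 16.0 and 12.9 against 9.64 and 8.91 (-0.66, SE 0.18, FDR = 0.0494, edgeR). All 8 tested pore genes had log2 differences below 0, between -0.43 and -0.05, and none was called. *Calm2*, *Calm3*, the β subunit genes and the CaMKII inhibitor genes lay between 0.01 and 0.24, also without a call.

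These 8 calls rested on few libraries. Without vDG input replicate 1 or 2 labelled cKO none was called, where the remaining library was taken to vary like the others. Without WT vDG input replicate 2 or 3, 5 and 4 remained, and with all groups in a single fit 5 remained. Longer genes were lower in these libraries across the whole set (Spearman's rho of -0.24 between log2 difference and exonic length over 14082 genes, which are not independent), and the 8 had a median of 12332 exonic bp beside 6914 for members not called. With the length trend removed 4 remained (*Atp2b3*, *Atp2b1*, *Atp2a2* and *Cacna2d3*). Astrocyte markers summed to 422 to 523 CPM in WT and 309.8 to 342 in those labelled cKO, with 3 of 6 genes called lower, and interneuron markers to 448 to 513 and 380.0 to 386, with 0 of 8 called by edgeR. The 5 microglia markers summed to 21.1 to 34.4 and 13.8 to 19.7, also without overlap. Their part in these calls was not tested.

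**Figure D5:**
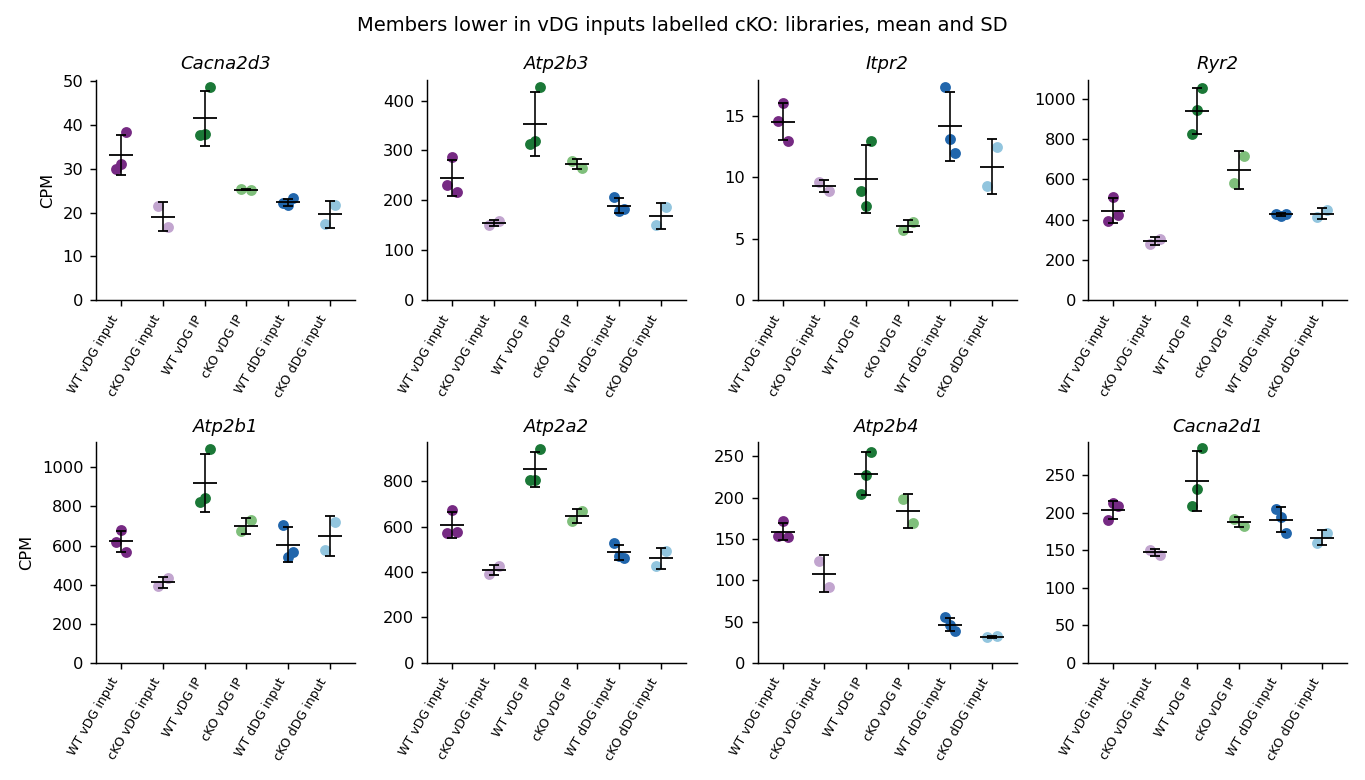
CPM per library for the 8 members lower in vDG inputs labelled cKO, in all 6 groups, with the mean and SD over libraries and each axis starting at 0. In every panel both vDG inputs labelled cKO lie below the 3 WT vDG inputs and both IPs labelled cKO below the 3 WT IPs, while the dDG inputs of the genotypes overlap except for *Atp2b4*.

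In the vDG IPs no member was called by edgeR at the study's FDR limit of 0.1, where 0.0699% of 14300 tested genes were higher and 0.35% lower. At an unadjusted p under 0.05, 11 members were lower in libraries labelled cKO and 1, *Calm2*, was higher, beside 7.57% and 4.14% of all genes. DESeq2 called 2 lower, *Cacna2d3* and *Ryr2*, and 0 higher, beside 3.38% and 0.927% of the genes it gave an adjusted p. *Cacna2d3* had 37.7, 38.0 and 48.6 CPM in the WT IPs and 25.3 and 25.1 in those labelled cKO (log2 difference -0.68, SE 0.16, FDR = 0.123 with edgeR and 0.0107 with DESeq2). *Ryr2* had 824, 942 and 1055 against 579.7 and 714 (-0.50, SE 0.14, FDR = 0.214 with edgeR and 0.0495 with DESeq2). Neither gene overlapped between genotypes, and both passed the limit with edgeR on leaving out WT IP replicate 1, where 2 members were called. All 5 tested pumps lay below their WT libraries without overlap, as did 18.3% of all tested genes, with log2 differences between -0.36 and -0.19 and FDRs from 0.312 to 0.612 (edgeR). In the same IPs interneuron markers summed to 167 to 194 CPM in WT and 115 to 131 in those labelled cKO, with 1 of 6 tested called lower, and astrocyte markers to 58.4 to 105 and 48.4 to 61.4, with 0 called by edgeR. Mossy cell markers summed to 100.6 to 116 and 85.8 to 100.4 and did not overlap, with 0 of 5 called by edgeR. Their part in these values was not tested. The most abundant members of the 18 classes lay between -0.50 and 0.25 (FDR from 0.214 to 0.996, edgeR).

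In dDG inputs no member was called (edgeR, FDR under 0.05), where 0.0065% of 15383 tested genes were higher and 0.026% lower. At an unadjusted p under 0.05, 7 members were higher in libraries labelled cKO and 2 lower, beside 5.23% and 7% of all genes. DESeq2 called 1, *Ppp3cb*, higher, where 0.815% of the genes it gave an adjusted p were higher and 1.02% lower. *Ppp3cb*, a catalytic calcineurin gene, had 155, 169 and 180.5 CPM in WT and 241 and 254 in those labelled cKO (log2 difference 0.56, SE 0.10, FDR = 0.0954 with edgeR and 0.000601 with DESeq2). *Atp2b4* had 55.1, 45.7 and 38.4 against 31.0 and 32.4 (-0.55, SE 0.15, FDR = 0.174, edgeR). Neither gene overlapped between genotypes, both were named after their values were seen, and both passed the limit with edgeR on leaving out WT dDG input replicate 3. *Ryr2* had 431, 419 and 428 against 411 and 449.6 CPM (log2 difference 0.01, FDR = 0.977, edgeR). In the same inputs astrocyte markers summed to 453 to 484 CPM in WT and 326 to 435 in those labelled cKO, and choroid plexus markers to 31.7 to 148 and 18.03 to 23.0, neither overlapping, with no gene of either list called by edgeR. Microglia markers summed to 24.0 to 43.6 and 20.8 to 21.4, also without overlap. Their part in these values was not tested. The median was 0.01 over members and -0.17 over pumps.

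Whether the genotype difference itself varied was tested with interaction terms. Between IP and input in vDG, no member was called by edgeR or DESeq2 (0 of 16093 genes by edgeR, 0%), and 0 had an unadjusted p under 0.05, beside 1.59% of all genes in the positive and 1.5% in the negative direction. The interaction of *Ryr2* was 0.12 on the log2 scale (SE 0.19, FDR = 1, edgeR). Between vDG and dDG inputs no member was called by edgeR either (0 of 16306 genes, 0%). At an unadjusted p under 0.05, 13 members had a more negative difference in vDG than in dDG and 0 the opposite, beside 7.31% and 5.02% of all genes. DESeq2 called 2 in the first direction, *Atp2b1* and *Ryr2*, beside 2.42% of the genes it gave an adjusted p (0.798% the opposite way), and edgeR with no count filter called 3, these and *Camk4*. The interaction was -0.72, SE 0.19, FDR = 0.15 with edgeR and 0.0225 with DESeq2 for *Atp2b1*. For *Ryr2* it was -0.64, SE 0.17, FDR = 0.15 with edgeR and 0.0204 with DESeq2. Longer genes had the more negative interaction across the whole set (Spearman's rho of -0.28 over 14431 genes, which are not independent), and the tested members had a median of 7706 exonic bp beside 4445 over all genes. With the length trend removed, an alternative chosen after the data were seen, the interaction was -0.50 for *Atp2b1* and -0.31 for *Ryr2*, and no member was called.

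A promoter motif was read for the 8 members lower in vDG inputs labelled cKO, because the receptor raises cAMP and the cAMP response element is bound by CREB. RefSeq windows (GRCm38.p6, from 250 bases before to 50 after a start site) were matched for 43 of the 61 members and for 6 of the 8, all but *Atp2a2* and *Atp2b3*. The full element TGACGTCA was in the windows of 0 of these 43 members, beside 2.03% of 27025 genes. Its core TGACG, read on both strands and also part of the full element, was in windows of 14 of the 43 (32.6%), beside 23.0% of all genes, and in 3 of the 6. The windows of these 3 that hold the core are shown 5′ to 3′ on the gene's strand, with the core or its reverse complement in capitals, as a record of where those letters lie. *Atp2b1* has another window, without the core, that is not shown. The *Atp2b4* window lies inside the annotated gene, at an inner start site.
Atp2b1 (chr10:98914392-98914691, plus strand): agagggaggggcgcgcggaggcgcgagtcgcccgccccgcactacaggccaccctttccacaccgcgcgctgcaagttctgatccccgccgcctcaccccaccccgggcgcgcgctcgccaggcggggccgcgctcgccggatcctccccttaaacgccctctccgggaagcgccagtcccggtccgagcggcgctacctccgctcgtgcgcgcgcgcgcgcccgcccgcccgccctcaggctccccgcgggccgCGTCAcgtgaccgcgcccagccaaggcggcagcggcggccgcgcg
Atp2b4 (chr1:133753698-133753997, minus strand): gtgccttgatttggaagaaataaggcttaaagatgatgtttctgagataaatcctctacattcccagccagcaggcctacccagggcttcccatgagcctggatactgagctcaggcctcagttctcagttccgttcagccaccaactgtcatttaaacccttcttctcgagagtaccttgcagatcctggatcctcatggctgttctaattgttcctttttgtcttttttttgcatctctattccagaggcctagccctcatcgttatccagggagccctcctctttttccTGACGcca
Cacna2d1 (chr5:15934441-15934740, plus strand): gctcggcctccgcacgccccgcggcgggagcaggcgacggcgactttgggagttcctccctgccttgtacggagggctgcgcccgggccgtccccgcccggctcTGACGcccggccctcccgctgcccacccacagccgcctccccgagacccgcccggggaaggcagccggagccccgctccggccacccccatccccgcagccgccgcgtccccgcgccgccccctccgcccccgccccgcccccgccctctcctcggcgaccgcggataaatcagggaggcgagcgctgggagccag

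Other calcium genes were read from a list of 62 exchangers, store-operated channels, mitochondrial carriers, buffers and cofactors. In the WT IP, 9 of 54 tested rose (16.7%, beside 7.73% of all genes) and 7 fell (12.96%, beside 16.1%) by edgeR, while DESeq2 called 15 higher and 7 lower (beside 10.2% and 16.2%). In those labelled cKO 15 of 54 rose (27.8%, beside 11.8%) and 8 fell (14.8%, beside 15.7%) by edgeR, with 19 and 8 by DESeq2 (beside 12.3% and 13.6%). The sodium-calcium exchanger gene *Slc8a2* (log2 differences 0.74 and 0.93) and the sensor gene *Hpca* (0.44 and 0.51) rose in both, and *Pvalb*, a buffer of interneurons, fell in both (-3.61 and -4.40). Between regions 10 were higher (18.5%, beside 9.26%) and 8 lower (14.8%, beside 6.09%) in vDG in WT. In inputs labelled cKO 8 were higher (14.8%, beside 8.56%) and 9 lower (16.7%, beside 8.47%). *Calb2*, encoding calretinin, which in mice marks mossy cells, was higher in vDG (5.01 and 5.22), as was *Slc8a1* (1.89 and 1.03), while *Slc8a2* (-0.67 and -0.79) and the store-operated channel gene *Orai2* (-0.93 and -0.98) were lower. In vDG inputs labelled cKO 4 of 54 were lower by edgeR (7.41%, beside 2.33% of all genes) and 0 higher (0.108% of all genes were). At an unadjusted p under 0.05, 10 were lower and 3 higher (beside 10.6% and 4.23% of all genes). DESeq2 called 8 lower and 0 higher (beside 4.84% and 0.279% of the genes it gave an adjusted p). Those called by edgeR were the chaperone genes of the endoplasmic reticulum *Canx* (-0.66) and *Calr* (-0.57), the leak channel gene *Nalcn* (-0.64) and the exchanger gene *Slc24a3* (-0.51). Between genotypes in the IPs, edgeR called 0 of 53, where 0.0699% of all genes were higher and 0.35% lower. At an unadjusted p under 0.05, 1 was higher and 6 lower (beside 4.14% and 7.57% of all genes). DESeq2 called 0 higher and 0 lower there (beside 0.927% and 3.38%). In dDG inputs edgeR called 0 of 55, where 0.0065% of all genes were higher and 0.026% lower. At that p 7 were higher and 4 lower (beside 5.23% and 7%), with 1 and 1 by DESeq2 (beside 0.815% and 1.02%). The genes named from this list were chosen after their values were seen.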

How the data were processed

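RNA was amplified from 15 dissected dentate gyrus IP and input samples and sequenced as paired reads. The authors trimmed reads with Trim Galore 0.4.1, aligned them to mm10 with STAR 2.4.2a, removed duplicates with SAMtools 0.1.19-444 and deposited raw counts per gene symbol from HTSeq 0.6.0. Reads were not labelled with molecular identifiers, multi-mapped reads (9.28% to 13.4% per library) were not counted, and the methods give union mode with default settings, which for HTSeq would count sense reads only, and reads without a feature made up 11.3% to 18.7% per library. The strand setting behind the deposited counts is therefore uncertain, and since the kits used do not mark strand, reads from genes that overlap on opposite strands cannot be told apart. Further deposited tables with normalized counts, fold changes and p-values of the authors' own comparisons were not used.

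Total counts were 19039295 to 30451430 per library, and precision covers counting and library spread only, since replicates are pools of mice. CPM used TMM factors over 15 libraries. Lengths and positions came from GENCODE M21 (GRCm38), which covered 82.4% of detected features (19049) and all 61 members. Comparisons were fitted with edgeR 4.0.16 (TMM, filterByExpr, quasi-likelihood test, Benjamini-Hochberg adjustment over all tested genes) in R 4.3.3 on the libraries of the 2 groups compared, or of 4 groups for interactions. The FDR limit was 0.1 between genotypes in vDG IPs and 0.05 elsewhere, after the study's methods. Exact permutation of 3 against 2 libraries could not give a two-sided p below 0.2.

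Alternatives were DESeq2 1.42.0, its size factors, library size alone, no count filter, at least 10 counts in every library, all groups in 1 fit, a replicate block, a length trend removed by loess (span 0.5) and each library left out. For the interactions the single fit of all groups and the replicate block were not run, and the length trend was added after the data were seen. Members, lists and tests were chosen with earlier results of these data known. Members called in a comparison, *Ryr2* and the most abundant member of each class were named by rule, the last as a range where not called, and other names were chosen after their values were seen. Values of 1 member are not reported here, although it stays in the counts over members.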

Additional observations from a re-analysis of the deposited data

How the results depend on the processing

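Counts of members called moved by more than 1.5 times under some settings. In the WT IP comparison 11 rather than 20 members rose with library size alone, and 12 to 20 with single libraries left out. In the IP comparison labelled cKO, 6 rather than 3 fell with library size alone, 5 with the replicate block, 6 with the length trend removed, 8 with both, and 2 to 4 with single libraries left out. Between genotypes in vDG IPs, where 0 were called, 2 were lower with DESeq2, 1 with library size alone, 2 with no count filter, 2 with all groups in 1 fit, 1 with the length trend removed and 0 to 2 with single libraries left out. In vDG inputs, 5 rather than 8 were lower with all groups in 1 fit, 4 with the length trend removed, 2 with that and the replicate block, and 0 to 8 with single libraries left out. In dDG inputs 1 was higher with DESeq2, 2 higher and 1 lower with no count filter, 2 and 1 with the replicate block, 3 and 1 with the block and the length trend removed, and 0 to 1 and 0 to 1 with single libraries left out. The interaction with region had 2 calls with DESeq2 and 3 with no count filter. The cause of these shifts was not tested. For *Ryr2* the uncalled difference turned sign between regions in WT (-0.0442 to 0.145 with libraries left out), between genotypes in dDG (-0.0944 with the length trend removed, -0.101 with the block as well, -0.0506 to 0.0804 with libraries left out) and in the interaction with fraction (-0.0352 to 0.264 with libraries left out, -0.0115 with the length trend removed). Of 1513 values under alternatives that were not counts of calls, 1323 kept their direction and side of the limit, 157 lost a call, 26 gained a call and 7 turned sign. By the methods, input RNA came from part of the supernatant before the IP, so IP and input may share a homogenate. Correlations of deviations between same-numbered replicates were 0.234, -0.0014 and -0.0386 for WT IPs and inputs. Those of WT vDG and dDG inputs were 0.252, 0.0473 and 0.181. Replicate numbers were not taken as pairs in the main fits, and the replicate block was an alternative. With it *Ryr3* was called in the WT IP comparison. *Cacnb3*, *Itpr2* and *Ppp3cb* were among the calls it added in libraries labelled cKO.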
